A study of Homo sapiens with 9 samples.

Results

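Concave and convex bending of the culture plate were compared directly in early human neuroepithelium. The RNA-seq libraries were chosen by name from the deposited counts: concave 1 to 3 against convex 1 to 3, 6 of the 9 libraries of the series, each concave library set against the convex library of the same number. The flat libraries were not used. All 6 cultures were of H9, a widely used embryonic stem cell line of human origin and of wild-type genotype. They were grown for 72 h in pluripotency medium on Matrigel-coated silicone (PDMS), then kept for 48 h in N2B27 medium with SB431542 and LDN, which block TGF-beta and BMP receptors and direct the cells to a neural fate (dual SMAD inhibition). For the last 24 h, still under both inhibitors, the plate was bent into a concave or a convex shape. H9 is a single line, and the labels do not say whether a group's libraries are from separate cultures or days. Nor do they say whether libraries of the same number share a culture or a day. The p-values and errors of fits paired by number measure only the spread of the differences within these pairs. Differences between numbers are taken out of them.

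A sheet of epithelium can be bent towards its apical or its basal side, and neural folding in the embryo uses apical constriction, in which actomyosin narrows the apical cell surface. Bending also loads integrin adhesions and the actin skeleton, which control transcription through the SRF cofactors MRTF and the TEAD cofactors YAP and TAZ. FGF signalling through ERK kinases helps to keep human pluripotent cells in that state, and ERK activity induces its own inhibitors, among them the Sprouty (SPRY), SPRED and DUSP proteins, and the ETS factors ETV4 and ETV5.

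The cultures carried the mRNAs of neuroepithelium leaving pluripotency, and these differed little between the bending directions. SOX2, a neural and pluripotency factor, stood at 751.6, 754.9 and 524 CPM (counts relative to the library total after TMM scaling) in concave libraries 1, 2 and 3, and at 780.7, 762.7 and 468.3 in convex libraries 1, 2 and 3. OTX2, a forebrain and midbrain factor, stood at 261.4, 291.7 and 325.5 CPM in the concave libraries and at 282, 293.7 and 265.6 in the convex ones. In both genes the groups overlapped. PAX6, a later neural marker, was low, between 1.09 and 7.19 CPM over the 6 libraries. The pluripotency gene POU5F1 lay between 208.1 and 506 CPM, highest in both libraries numbered 3, and reads of its pseudogenes can be assigned to it. Of the cadherins, CDH1 of pluripotent and surface epithelia lay between 200 and 639.9 CPM and CDH2 of neural epithelium between 96.2 and 245.4. The log2 differences in the paired fit, concave minus convex, were 0.03 ± 0.11 (SE) for SOX2, 0.06 ± 0.12 for OTX2, -0.04 ± 0.19 for PAX6, -0.02 ± 0.11 for POU5F1, 0.14 ± 0.12 for CDH1 and 0.04 ± 0.11 for CDH2.

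The libraries numbered 3 stood apart from the rest more than the bending directions did from each other. Totals lay between 51916974 and 64763412 counts, and mitochondrially encoded genes took 6.57% to 10.5% of them, most in concave 3 and least in concave 1. Counts of libraries within a group differed by 19.7 to 158.5 chi-square per degree of freedom, so none was a repeat of another. Concave and convex libraries of the same number differed by 31.5 (number 1), 9.17 (number 2) and 42.8 (number 3). Among numbers 1 and 2, libraries of unlike number differed by 15.2 (concave 2 with convex 1) to 60.1 (concave 1 with convex 2). The first principal component, 70.4% of the variance, set both libraries numbered 3 apart from the other 4, and on the second, 14.3%, concave 1 lay farthest out on one side. TDGF1, a Nodal co-receptor of pluripotent cells, stood at 166.6 and 191.8 CPM in concave 3 and convex 3 and at 4.79 or less in the rest. Of the markers fixed for other cell types, 9 of 18 non-neural ectoderm genes, 8 of 16 amnion and trophectoderm genes, 9 of 16 neural crest genes, 4 of 16 mesoderm genes, 2 of 14 endoderm genes, 9 of 16 neuronal genes and 9 of 16 fibroblast, endothelial and blood genes averaged at least 1 CPM. KRT14, CGA, VGLL1, TTR and HBE1 were at 0 in every library. The summed level of the amnion and trophectoderm list was 192.5 to 397 CPM in the concave libraries and 210.4 to 295.5 in the convex ones; that of the endoderm list was 4.49 to 11.4 and 4.4 to 16.1. In bulk RNA fewer cells of a type and less RNA per cell cannot be told apart.

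No gene passed the test between concave and convex bending. edgeR's quasi-likelihood test with the replicate number as a block and Benjamini-Hochberg adjustment called 0 of 22377 genes tested (0%), with a smallest adjusted p of 0.9996. An unadjusted p under 0.05 was reached by 333 genes higher in concave (1.49%) and 218 lower ones (0.974%), 551 in all. This is a smaller share of the 22377 than the 0.05 that would come up if no gene differed. limma voom with the same block called 0 genes as well (623 at an unadjusted p under 0.05), and DESeq2 called 2 higher ones, EIF3C and MAGEA2, both of which have near-identical copies that can share their reads. The median standard error of a log2 difference was 0.117 among the 11946 genes averaging at least 5 CPM. Because no adjusted p was below 0.9996, genes are described below by their values in each library, their pair differences and the log2 difference of the paired edgeR fit (concave minus convex) with its standard error.

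The pairs were then read one by one. A pair difference is the log2 CPM (prior count 2) of the concave library minus that of the convex library of the same number. Of the 11946 genes of at least 5 CPM, 970 were higher in concave in all 3 pairs (8.12%) and 1343 were lower in all 3 (11.2%). A gene was taken as alike in all 3 pairs when the smallest of its differences was at least 0.32 on the log2 scale and the largest at most 2 times the smallest. There were 5 such genes, 1 higher in concave (0.00837%) and 4 lower (0.0335%). All 5 were genes of low level, and with a minimum of 20 CPM in place of 5 only 1 was left.

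Among the 4 lower genes, VGF and ARC encode products that neurons induce with activity and growth factor signalling. VGF (ENSG00000128564, chromosome 7, 101162509 to 101165593), a secreted precursor of neuropeptides, stood at 5.96, 24.4 and 37.97 CPM in concave libraries 1, 2 and 3 and at 7.88, 40.7 and 55.7 in convex libraries 1, 2 and 3. Each concave library was below its convex partner, while the groups overlapped because level followed the number. The pair differences were -0.40, -0.74 and -0.55, and the fit gave -0.57 ± 0.11 (SE). ARC (ENSG00000198576, chromosome 8, 142611044 to 142614472), an immediate early gene whose protein acts at synapses, stood at 3.16, 5.42 and 5.67 CPM in the concave libraries and at 4.48, 10.05 and 7.91 in the convex ones. Again all 3 partners ranked the same way, and the widest gap was in pair 2. Its differences were -0.50, -0.89 and -0.48 (fit -0.63 ± 0.16).

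GRIN2B (ENSG00000273079, chromosome 12, 13437942 to 13981957), a subunit of the NMDA glutamate receptor, was the most even of the 5. It stood at 3.5, 4.15 and 6.69 CPM in the concave libraries and at 4.65, 5.76 and 9.31 in the convex ones. The pair differences were -0.41, -0.47 and -0.47 (fit -0.45 ± 0.15). ANXA3 (ENSG00000138772, chromosome 4, 78551519 to 78610451), a calcium-dependent membrane-binding protein that is also in the amnion and trophectoderm marker list, where it was the 1 member lower in concave and the other 8 tested were higher, passed the 5 CPM minimum only through number 3. It stood at 0.446, 1.87 and 18.8 CPM in concave and at 0.639, 2.56 and 29.06 in convex libraries, with differences of -0.49, -0.44 and -0.63 (fit -0.55 ± 0.15). The 1 higher gene, CABP1 (ENSG00000157782, chromosome 12, 120640552 to 120667324), encodes a neuronal relative of calmodulin. Concave libraries 1, 2 and 3 held 13.2, 6.57 and 5.15 CPM of it and their convex partners 8.98, 5.04 and 3.72, differences of 0.55, 0.38 and 0.47 (fit 0.47 ± 0.14). Here the levels ran the other way by number, highest in number 1 and lowest in number 3.

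The promoter of VGF is shown because VGF had the smallest p of the genes alike in all pairs. Capitals mark the cyclic AMP response element TGACGTCA, the site of CREB-family factors, and the E-box-like palindrome CACGTG. The stretch is the 250 bases before the RefSeq start (GRCh38.p14, chr7:101165570-101165819, minus strand).
VGF: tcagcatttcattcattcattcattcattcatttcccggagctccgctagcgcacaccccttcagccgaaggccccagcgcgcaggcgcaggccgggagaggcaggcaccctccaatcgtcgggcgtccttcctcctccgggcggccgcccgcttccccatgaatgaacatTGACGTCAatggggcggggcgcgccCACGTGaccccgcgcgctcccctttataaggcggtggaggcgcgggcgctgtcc
Searched on both strands, TGACGTCA occurs in 1.65% of the 35116 promoter windows of that length, and ACGTG, which the palindrome holds on each strand, in 18.5%. The motifs were chosen after the values were seen, and a match describes the sequence only.

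Just outside the limits lay 3 genes of 1 pathway, all lower in concave in every pair: SPRY4, ETV5 and DUSP6. Their smallest differences passed 0.32, and their largest were 2.38, 2.01 and 2.35 times the smallest. At a limit of 2.5 times, chosen after the data were seen, all 3 joined and the set held 8 genes, 1 higher and 7 lower. Just under the limit of 0.32 were FOXI3, FAM217B and LRRC55, lower in all pairs with smallest differences of 0.316, 0.304 and 0.304, and TMEM186 and GDPD1, higher in all pairs with 0.307 for both.

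SPRY4 (ENSG00000187678, chromosome 5, 142310427 to 142326455), an inhibitor of receptor tyrosine kinase signalling to ERK, had the smallest p of all lower genes of at least 5 CPM. Its levels were 5.75, 20.9 and 35.6 CPM in concave libraries 1, 2 and 3 against 10.2, 26.6 and 59.9 in convex libraries 1, 2 and 3. Within each number the concave library was the lower one, and the spread between numbers was wider than the gap in any pair. The pair differences were -0.82, -0.34 and -0.75 and the fit gave -0.63 ± 0.12. ETV5 (ENSG00000244405, chromosome 3, 186046308 to 186110318), an ETS transcription factor induced by FGF, stood at 2.45, 10.8 and 6.9 CPM in concave and at 4.22, 14.2 and 11.3 in convex libraries. All 3 concave libraries were again below their partners, by -0.78, -0.39 and -0.70 (fit -0.62 ± 0.15). DUSP6 (ENSG00000139318, chromosome 12, 89347232 to 89353271), the phosphatase that removes the activating phosphates of ERK, stood at 1.11, 6.81 and 8.51 CPM in concave and at 2.05, 8.79 and 11.03 in convex libraries. Its differences were -0.86, -0.37 and -0.37 (fit -0.51 ± 0.17).

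**Figure D1:**
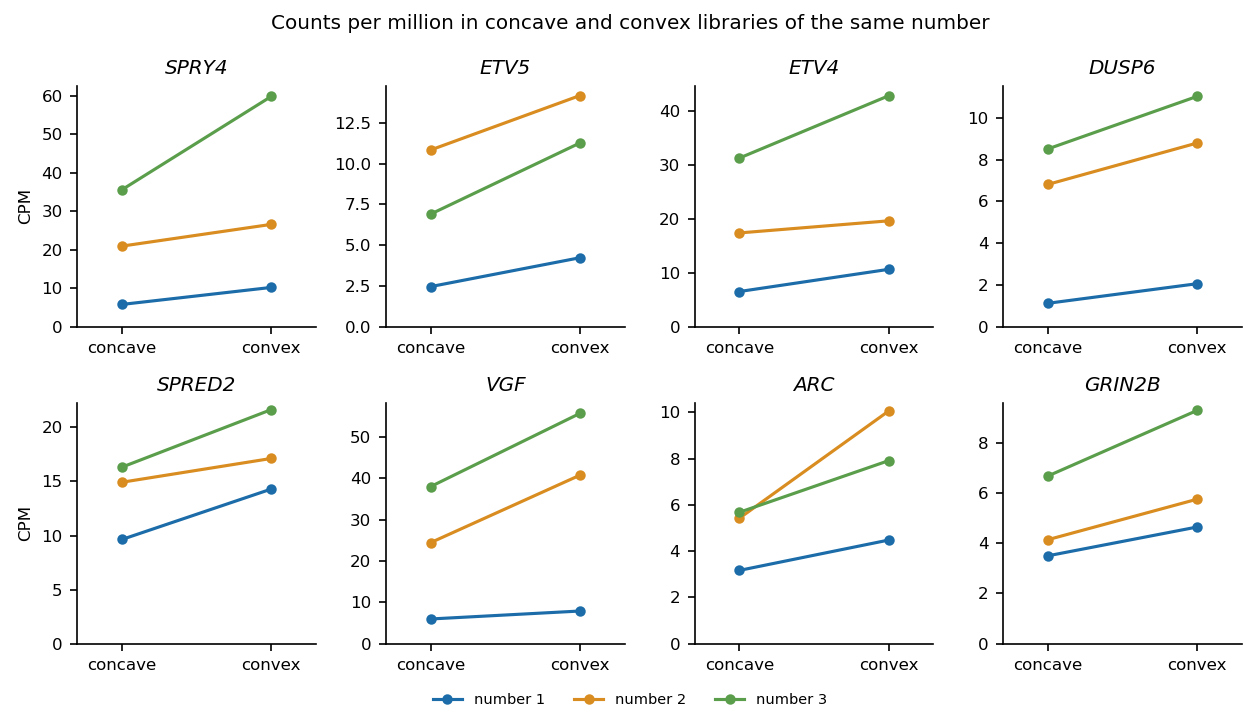
Level in CPM (vertical axis, from 0) of 8 genes in the concave and convex library of each number (lines join libraries of the same number; 1 point is 1 library). The 8 genes were taken from those lower in concave in all 3 pairs, so all 24 lines climb from concave to convex by that choice. CABP1, alike in all 3 pairs but higher in concave, is not shown. The height of a line depends mostly on the number: SPRY4 runs from 5.75 to 35.6 CPM within concave alone.

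The inhibitors and targets in the FGF and ERK feedback list were mostly lower in concave, and its ligands and receptors had no common direction. Of the list's 28 members, all tested, 18 were lower and 10 higher in concave, beside 10926 lower and 11451 higher among all genes tested, and the median was -0.12 against 0.00507 over all genes. None was called. At an unadjusted p under 0.05 there were 7 of the 28 members, all lower, where 0.974% of all genes tested were lower and 1.49% higher. Of the 23 with at least 5 CPM, 10 were lower and 0 higher in all 3 pairs, where 11.2% and 8.12% of all such genes were. The list was chosen with earlier results of these libraries known, so its direction is a description. Medians of the list were -0.18, -0.11 and -0.07 in pairs 1, 2 and 3. Fitted differences of its members ran from -0.63 to 0.62, and 1 member was higher in concave by at least 1 in pair 1. The member with the highest fit is not among those named below, and several other higher members are not named either.

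Of the inhibitors, SPRED2, which holds back Ras activation of RAF, stood at 9.64, 14.9 and 16.3 CPM in concave and at 14.3, 17.1 and 21.6 in convex libraries (fit -0.39 ± 0.12). SPRY2, a close relative of SPRY4, stood at 9.31, 20.98 and 25.5 CPM in concave and at 14.1, 22.8 and 30.3 in convex libraries (fit -0.32 ± 0.12). Both were lower in all 3 pairs and least so in pair 2, at -0.20 and -0.12. DUSP4, DUSP5 and IL17RD, further dampers of the pathway, were lower in every pair with fitted differences of -0.20 ± 0.11, -0.29 ± 0.14 and -0.25 ± 0.15, none at an unadjusted p under 0.05. Each was near 0 in 1 pair, DUSP4 at -0.02 in pair 3, DUSP5 at -0.06 in pair 1 and IL17RD at -0.03 in pair 2. SPRED1 and SPRED3 were not lower in every pair, at 0.02 and 0.08 in pair 2, and SPRED3 was at 0.07 in pair 3 too, so that its fitted -0.23 ± 0.19 came from a difference of -0.85 in pair 1. SPRY1 had a fitted difference of 0.05 ± 0.14, with 0.44 in pair 1 and -0.14 and -0.13 in pairs 2 and 3.

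Among the pathway's transcriptional targets, ETV4, a close relative of ETV5, stood at 6.51, 17.4 and 31.3 CPM in concave and at 10.6, 19.6 and 42.9 in convex libraries. It was lower in each pair, by -0.71, -0.17 and -0.45 (fit -0.44 ± 0.13). ETV1 differed by -0.17 ± 0.12 and was higher in concave in pair 2, at 0.03. CCND1, the cyclin that drives entry into S phase, was lower in each pair, but only by -0.03 in pair 2 (fit -0.18 ± 0.11). Immediate early genes, which growth factors induce, had 13 of 20 lower and 7 higher in the fit (median -0.10), with 14 of 20 higher in concave in pair 1 and 2 and 8 of 20 in pairs 2 and 3. Their medians were 0.41, -0.25 and -0.16 in pairs 1, 2 and 3, and without concave 1 the list had 17 of 20 lower. Of its members at an unadjusted p under 0.05, FOSL1 was below its partner in all 3 pairs, at 0.505, 1.58 and 4.57 CPM against 1.03, 2.48 and 5.73 (fit -0.62 ± 0.21). MYC was too, at 6.01, 11.5 and 23.97 CPM against 8.13, 13.6 and 26.5 (fit -0.27 ± 0.12). EGR1, an immediate early gene that ERK induces, did not share the pattern: it stood at 14.3, 13.8 and 10.1 CPM in concave and at 10.01, 27.9 and 9.73 in convex libraries, higher in concave in pairs 1 and 3 and lower in pair 2 (fit -0.16 ± 0.26).

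The ligands and receptors named here differed less or without a common direction. FGF2, made by pluripotent cells, stood at 55.8, 64.9 and 80.2 CPM in concave and at 69.4, 63.2 and 120.2 in convex libraries, lower in pairs 1 and 3 and level in pair 2 (fit -0.29 ± 0.13). The receptor FGFR1 lay between 1483 and 1704 CPM in all 6 libraries (fit 0.09 ± 0.12). FGFR2, FGFR3 and FGFR4 had fitted differences of 0.01 ± 0.10, -0.00131 ± 0.11 and 0.07 ± 0.11. FLRT3, a membrane protein that binds FGF receptors, was on the other side, at 196.3, 170.9 and 59.1 CPM in concave against 151.3, 172.8 and 45.9 in convex libraries (fit 0.24 ± 0.11).

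**Figure D2:**
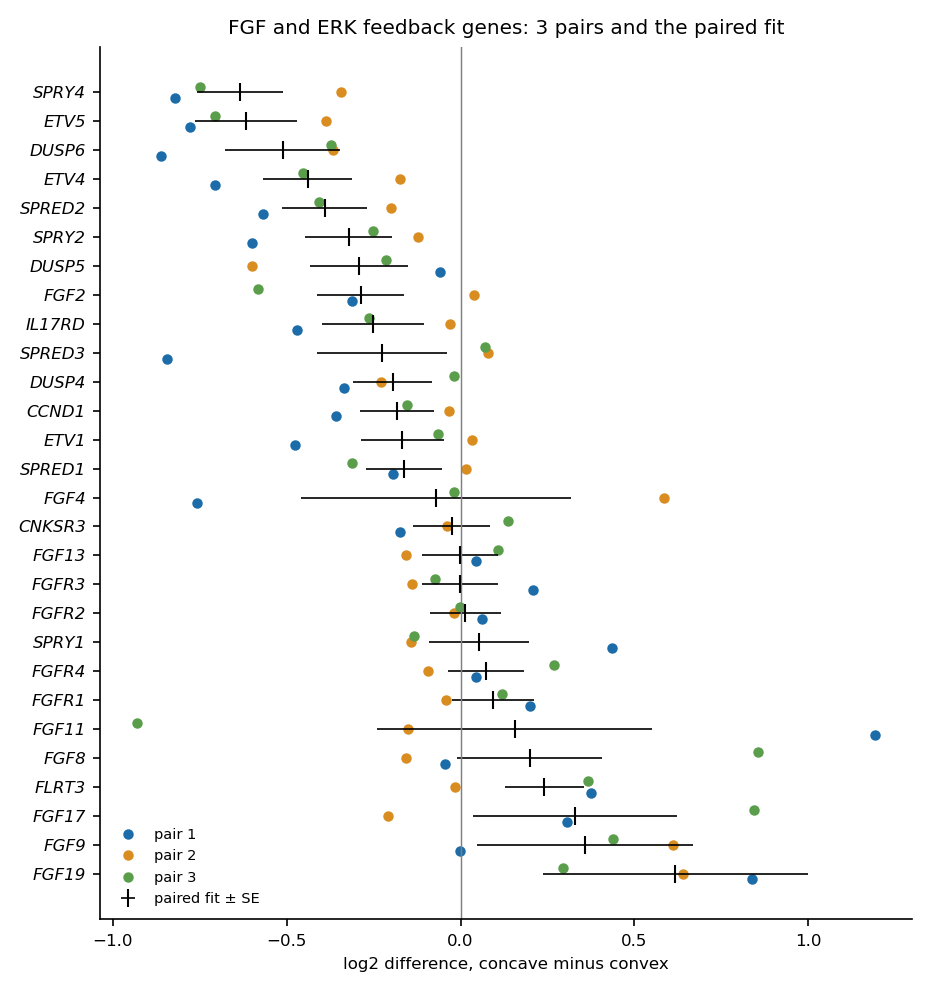
Log2 difference, concave minus convex, of the 28 FGF and ERK feedback genes (vertical axis, ordered by the paired fit): coloured points are pairs 1, 2 and 3, and the black mark with its bar is the edgeR paired fit ± SE. From SPRY4 down to SPRY2 all 3 points lie left of 0, and the receptors sit near 0.

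Leaving out concave 1 leaves pairs 2 and 3, because convex 1 then has no partner. There edgeR again called 0 of 23035 genes tested. Of these, 97 higher and 122 lower ones, 219 in all, had an unadjusted p under 0.05. The FGF and ERK feedback list had 18 members lower and 10 higher as before, a median of -0.11, and 2 members at an unadjusted p under 0.05, both lower. Of its 23 members of at least 5 CPM, 13 were lower in both remaining pairs and 1 higher, where 17.09% and 13.4% of all such genes were. SPRY4 went from -0.63 to -0.56 ± 0.19, ETV5 from -0.62 to -0.55 ± 0.21, DUSP6 from -0.51 to -0.38 ± 0.22 and ETV4 from -0.44 to -0.33 ± 0.18. Other members lost more of their difference: SPRY2 went from -0.32 to -0.20 ± 0.18, IL17RD from -0.25 to -0.16 ± 0.22, CCND1 from -0.18 to -0.10 ± 0.18, ETV1 from -0.17 to -0.02 ± 0.18 and SPRED3 from -0.23 to 0.06 ± 0.21. VGF moved the other way, from -0.57 to -0.65 ± 0.18, and ARC from -0.63 to -0.70 ± 0.24. Of the remaining genes alike in all 3 pairs, GRIN2B went from -0.45 to -0.49 ± 0.24 and ANXA3 from -0.55 to -0.56 ± 0.21. CABP1 went from 0.47 to 0.41 ± 0.24. GRIN2B and CABP1 then had an unadjusted p above 0.05.

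Concave 1 stood apart in hypoxia and glycolysis genes, which the oxygen-regulated factor HIF1 induces. In pair 1 all 34 listed genes were higher in concave, 18 of them by at least 1 on the log2 scale, and concave 1 was the highest of the 6 libraries in 31 of the 34 (91.2%, against 23.1% of all genes tested). The list's median was 1.09 in pair 1, -0.08 in pair 2 and 0.12 in pair 3. With all 3 pairs in the fit, 34 of 34 members were higher, with a median of 0.34; without concave 1 the fit had 18 higher and 16 lower and a median of 0.00495. The list's direction in the full fit rested on that 1 library.

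The genes that follow were picked after their values were seen, as the widest examples, apart from P4HA2, which the naming rule gave. LDHA (ENSG00000134333, chromosome 11, 18394388 to 18408425), the enzyme that makes lactate, stood at 866.7 CPM in concave 1 and between 165.1 and 241.5 in the other 5 libraries. SLC2A1, the glucose transporter GLUT1, stood at 807.1 CPM in concave 1 and between 200.2 and 297.5 elsewhere. BNIP3 (ENSG00000176171, chromosome 10, 131966455 to 131982013), which marks mitochondria for removal, stood at 269.9 CPM and between 29.7 and 58.6 elsewhere. In each of these 3 genes concave 1 was the highest of the 6 libraries and concave 2 the lowest. NDRG1, a stress-induced gene, was at 63.8 CPM in concave 1, at 6.69 in convex 1 and at 1.86 or less in the remaining 4, so convex 1 was also above those. PGK1, a glycolytic kinase, was at 1021 CPM against 300 to 357.1, and P4HA2, a collagen prolyl hydroxylase, at 45.1 against 7.17 to 14.96.

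The fitted differences of these genes were large with errors to match. LDHA had 0.76 ± 0.52 with all libraries and 0.12 ± 0.18 without concave 1, BNIP3 0.755 ± 0.603 and 0.04 ± 0.18, and SLC2A1 0.59 ± 0.42 and 0.02 ± 0.19. NDRG1 went from 1.26 ± 1.01 to -0.08 ± 0.30, and VEGFA, the vascular growth factor, from 0.26 ± 0.21 to -0.09 ± 0.18. At an unadjusted p under 0.05 the list had ALDOA (0.42 ± 0.13) and P4HA2 (0.69 ± 0.28). Without concave 1 these were 0.30 ± 0.19 and 0.20 ± 0.21, neither at an unadjusted p under 0.05. ALDOA, a glycolytic aldolase, is uncertain: it was at 17.6 to 36.8 CPM, and its gene model overlaps others to which its reads can be assigned.

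**Figure D3:**
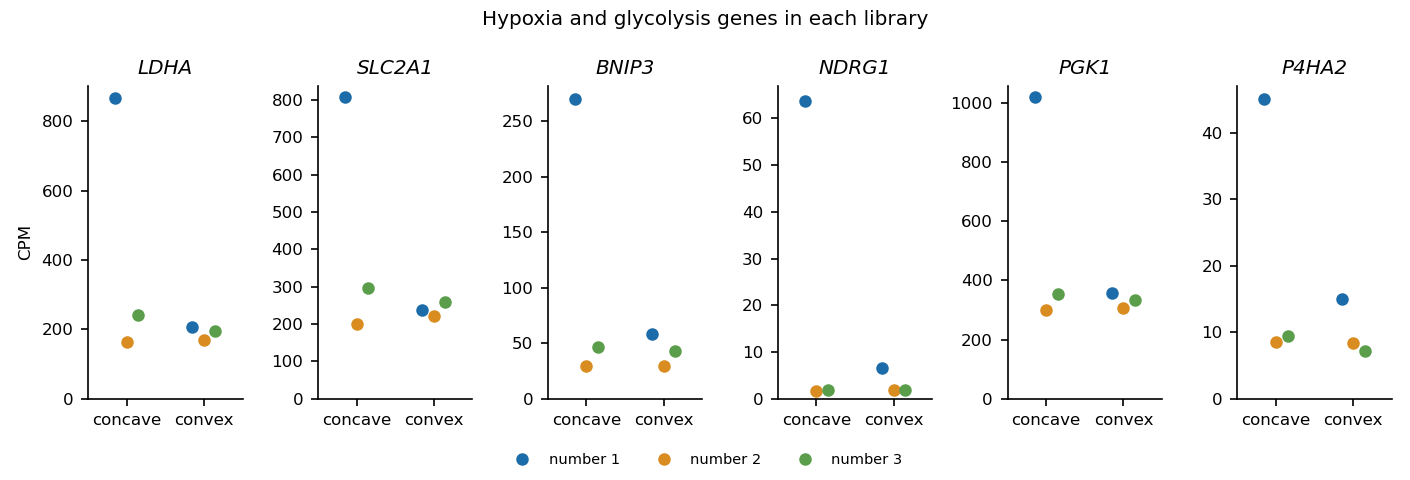
Level in CPM (vertical axes, each from 0) of 6 hypoxia and glycolysis genes in the 3 concave and 3 convex libraries, 1 point per library, coloured by number. Concave 1 is the highest point in every panel, at 866.7 CPM for LDHA where the other 5 lie between 165.1 and 241.5.

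The promoters of LDHA and BNIP3 are shown as examples, picked after the values were seen, of genes high in concave 1 alone. Capitals mark ACGTG on either strand, the core letters of the hypoxia response element, with the sixth letter where it completes CACGTG, and TGACGTCA. Both are the 250 bases before a RefSeq start (GRCh38.p14), LDHA at chr11:18394313-18394562 on the plus strand (the first of 2 entries) and BNIP3 at chr10:131981924-131982173 on the minus strand.
LDHA: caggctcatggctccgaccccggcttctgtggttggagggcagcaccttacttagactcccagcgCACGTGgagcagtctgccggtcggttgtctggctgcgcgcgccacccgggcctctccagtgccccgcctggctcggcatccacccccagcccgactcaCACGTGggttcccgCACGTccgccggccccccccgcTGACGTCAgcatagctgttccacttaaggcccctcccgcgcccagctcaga
BNIP3: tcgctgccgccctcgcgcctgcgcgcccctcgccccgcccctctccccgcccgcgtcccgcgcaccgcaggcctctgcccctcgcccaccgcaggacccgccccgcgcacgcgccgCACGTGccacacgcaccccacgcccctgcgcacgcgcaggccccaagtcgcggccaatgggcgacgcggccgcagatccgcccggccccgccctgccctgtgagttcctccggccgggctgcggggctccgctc
Of the 34 hypoxia and glycolysis genes, 30 had a window, and 19 of these (63.3%) held ACGTG on either strand in at least 1 window, against 21.7% of 27305 gene symbols. That list is of genes HIF1 is known to induce, so its share describes the list and not these libraries. Of the 28 FGF and ERK feedback genes, 17 had a window, and 0 held the ETS letters CCGGAAGT, which 4.13% of symbols did, while 4 held ACGTG (23.5%). The first window of some other named genes was searched too. SLC2A1, SPRY4, DUSP6, SPRED2 and SPRY2 held 0 matches to ACGTG, TGACGTCA or CCGGAAGT, while PGK1 held ACGTG.

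A few genes had the same sign and size in pairs 2 and 3 and the opposite sign in pair 1. Of 16 genes alike and lower in pairs 2 and 3, 6 were higher in pair 1, 4 of them by at least 0.32: KLHL4, ADM, AMOTL2 and the pseudogene ENSG00000240036. Of 5 genes alike and higher there, 0 were lower in pair 1. ADM, the vasodilator peptide adrenomedullin and a HIF target of the hypoxia list, stood at 15.6, 2.35 and 15.97 CPM in concave and at 3.2, 3.94 and 25.7 in convex libraries. It was higher by 2.27 in pair 1 and lower by -0.74 and -0.69 in pairs 2 and 3, so its fitted difference went from 0.24 ± 0.84 to -0.73 ± 0.21 without concave 1. AMOTL2, a junctional protein that binds YAP, stood at 20.4, 19.3 and 35.4 CPM in concave and at 12.5, 24.5 and 54.8 in convex libraries (-0.10 ± 0.23 with concave 1 and -0.50 ± 0.18 without). KLHL4 went from -0.68 ± 0.27 to -1.08 ± 0.24, and it passed the 5 CPM minimum through number 3 alone, at 11.03 CPM in concave 3 and 22.4 in convex 3.

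Across all genes the 3 pairs shared little. Over the 11946 genes of at least 5 CPM, the differences correlated across genes at r = 0.04 between pairs 1 and 2, 0.16 between pairs 1 and 3 and -0.45 between pairs 2 and 3; genes are not independent replicates, and the pairs share no library. Their standard deviation was 0.237, 0.153 and 0.317 in pairs 1, 2 and 3. Of the genes alike in pairs 1 and 3, 53 of 177 higher ones (29.9%) and 32 of 93 lower ones (34.4%) kept their sign in pair 2, where 38.98% of all genes were higher and 61.02% lower. Of those alike in pairs 1 and 2, 6 of 22 higher and 14 of 31 lower ones kept it in pair 3 (57.4% and 42.6% of all genes). Of those alike in pairs 2 and 3, 5 of 5 higher and 10 of 16 lower ones kept it in pair 1 (47.4% and 52.6%). Leaving out a library of pair 2, the pair with the smallest spread, left pairs 1 and 3. edgeR then called 105 of 23105 genes without concave 2 (63 higher and 42 lower) and 101 of 23200 without convex 2 (62 and 39). SPRY4 (-0.79 without concave 2) was called each time, as 1 of the 28 FGF and ERK feedback genes. So were 7 of the 34 hypoxia and glycolysis genes, the list in which concave 1 stood apart.

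**Figure D4:**
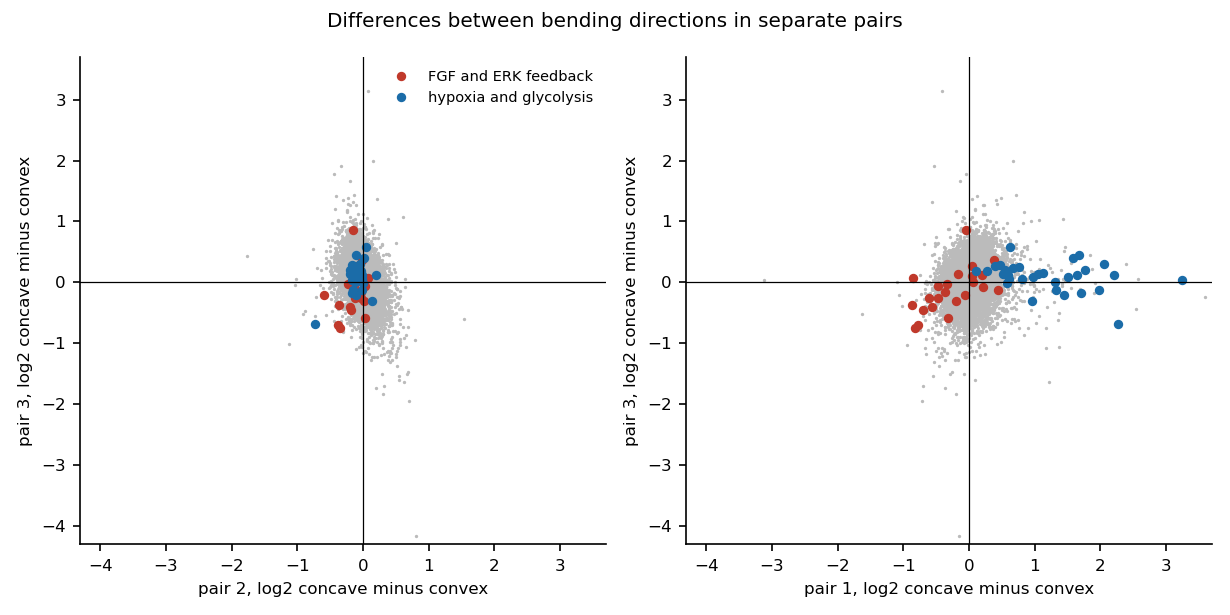
Log2 difference, concave minus convex, of genes of at least 5 CPM: pair 3 (vertical axes) against pair 2 (left) and against pair 1 (right). Grey points are all 11946 genes, red points the FGF and ERK feedback list and blue points the hypoxia and glycolysis list; blue points spread to the right against pair 1 and not against pair 2, and the grey cloud on the left tilts down (r = -0.45).

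Genes of the actin skeleton and of adhesion were mostly on the lower side in concave, by small amounts. Of 24 SRF and MRTF targets, 21 were lower and 3 higher (median -0.13, and -0.08, -0.20 and -0.07 in pairs 1, 2 and 3), with 0 at an unadjusted p under 0.05 and 5 of 18 lower in all pairs, where 11.2% of all genes were. ZYX, zyxin of focal adhesions and stress fibres, stood at 108.3, 147.3 and 233.4 CPM in concave and at 134.4, 175.8 and 252.2 in convex libraries (fit -0.23 ± 0.10). TAGLN, the actin-binding transgelin, stood at 8.87, 16.3 and 52.9 CPM in concave and at 9.96, 18.4 and 63.4 in convex libraries (fit -0.20 ± 0.11). Each concave library was below its partner in both genes. Of 29 integrin and focal adhesion genes 21 were lower (median -0.08), 8 of 24 in all pairs and 0 of 24 higher in all, beside 11.2% and 8.12% of all genes. BCAR1, the adhesion scaffold p130Cas, was lowest by p, at 74.9, 89 and 123.1 CPM in concave against 91.5, 111 and 138.5 in convex libraries (fit -0.26 ± 0.10). Without concave 1 these lists had 22 of 24 and 22 of 29 members lower, with medians of -0.16 and -0.12.

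YAP and TEAD targets were likewise lower in 22 of 29 (median -0.14, with -0.02, -0.10 and -0.24 in the pairs; 25 of 29 and -0.20 without concave 1). GLI2, PTPN14 and NUAK2 were lower in each pair (fits -0.27 ± 0.10, -0.37 ± 0.15 and -0.25 ± 0.11), but PTPN14 rested mainly on convex 3, at 163 CPM where the other 5 libraries lay between 78.8 and 90.1. TGFB2, a ligand whose receptor the culture's SB431542 blocks, was higher in each pair, at 56.9, 31 and 6.63 CPM in concave against 38.2, 29.6 and 4.8 in convex libraries (fit 0.36 ± 0.13, and 0.24 ± 0.19 without concave 1). CCN1 and CCN2, the best-known targets of the pathway, lay near the list's median, at -0.14 ± 0.12 and -0.18 ± 0.11. CCN2 was lower in every pair and at -0.23 ± 0.18 without concave 1.

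Apical constriction and actomyosin genes were lower in concave in 23 of 37 and higher in 14 (median -0.05), with 8 of 34 lower and 2 of 34 higher in all pairs, where 11.2% and 8.12% of all genes were. Without concave 1, 26 of the 37 were lower (median -0.07). In the fit of all libraries 1 had an unadjusted p under 0.05, CDC42EP1, an effector of the GTPase CDC42 (fit -0.28 ± 0.12). SHROOM3, an actin-binding protein that drives apical constriction, stood at 73.9, 65.4 and 92.4 CPM in concave and at 74.9, 70.3 and 108.2 in convex libraries. It was lower in each pair, by -0.02, -0.10 and -0.23 (fit -0.12 ± 0.10, and -0.18 ± 0.18 without concave 1). LIMCH1, an activator of non-muscle myosin, and ARHGAP35, a GTPase-activating protein, were also lower in each pair (fits -0.22 ± 0.11 and -0.19 ± 0.10, and -0.14 ± 0.18 and -0.20 ± 0.18 without concave 1). Planar cell polarity had 18 of 27 lower (median -0.06), with 5 of 24 lower and 4 of 24 higher in all pairs. Without concave 1 it had 22 of 27 lower (median -0.07). In both remaining pairs 10 of 24 (41.7%) were lower and 4 of 24 (16.7%) higher, against 17.09% and 13.4% of all genes. Membrane curvature and caveolae genes were lower in 25 of 38 (-0.02), nuclear envelope genes in 12 of 20 (-0.02), mechanosensitive channels in 11 of 23 (0.01) and primary cilium genes in 19 of 34 (-0.01); without concave 1 these were 22, 13, 11 and 18.

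Junction genes had 20 of 36 members higher in concave and 16 lower (median 0.03), and without concave 1 the list turned, with 15 higher and 21 lower (median -0.02). At an unadjusted p under 0.05 there were 3 of the 36, all higher, where 1.49% of all genes tested were higher and 0.974% lower. All 3 differed in pairs 1 and 3 rather than in pair 2. CLDN3, a tight junction claudin, stood at 20.1, 10.02 and 15.6 CPM in concave and at 12, 10.6 and 8.68 in convex libraries (fit 0.51 ± 0.17). F11R, the junctional adhesion molecule JAM-A, differed by 0.36, 0.01 and 0.50 in pairs 1, 2 and 3 (fit 0.29 ± 0.12), and CLDN7 by 0.83, -0.15 and 0.42 (fit 0.38 ± 0.16). Without concave 1, CLDN3 was at 0.37 ± 0.23, F11R at 0.24 ± 0.19 and CLDN7 at 0.14 ± 0.20, none with an unadjusted p under 0.05. Of 32 interferon-stimulated and MHC class I genes, 18 were higher and 14 lower (median 0.02). The 5 at an unadjusted p under 0.05 were all higher, beside 1.49% of all genes tested that were higher at that p. B2M, the MHC light chain, stood at 105.6, 84.9 and 109.5 CPM in concave and at 81.2, 86.7 and 69.4 in convex libraries (fit 0.34 ± 0.13), above its partner in pairs 1 and 3 only. IFITM1, an antiviral membrane protein, and HLA-E, an MHC class I chain, were so too (fits 0.40 ± 0.15 and 0.33 ± 0.13, and 0.28 ± 0.20 and 0.22 ± 0.19 without concave 1), whereas IFI35 was higher in each pair at a level of 0.785 to 1.99 CPM (fit 0.58 ± 0.24).

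Several lists had a direction in the fit that 1 pair opposed. Cytosolic ribosomal protein genes were higher in 44 of 45 (median 0.12), yet their medians were 0.16, -0.17 and 0.35 in pairs 1, 2 and 3, with 45, 1 and 45 of 45 higher. Nuclear-encoded respiratory chain genes were higher in 43 of 49 (0.08; 0.07, -0.15 and 0.40 by pair), and the 13 mitochondrially encoded genes were lower in 11 (-0.09; -0.37, -0.06 and 0.19). S phase genes were lower in 22 of 26 (-0.06), with 26 and 25 of 26 lower in pairs 1 and 2 and 6 in pair 3. Without concave 1 the S phase list had 15 higher and 11 lower, and the mitochondrially encoded list 9 higher and 4 lower. Extracellular matrix genes were higher in 34 of 39 in pair 1 and lower in 30 of 39 in pairs 2 and 3 each, and 21 of 36 were lower in both of those, where 17.09% of all genes were. THBS1, the matricellular thrombospondin, was lower in each pair, at 10.2, 15.8 and 39.3 CPM in concave against 11.8, 17.4 and 58.01 in convex libraries (fit -0.31 ± 0.12), and COL12A1, a collagen that joins fibrils, was too (fit -0.94 ± 0.30), at 1.74 in concave 3 and 5.8 in convex 3. The share of mitochondrially encoded counts was 6.57% in concave 1 against 7.63% in convex 1 and 7.77% in concave 2 against 8% in convex 2. In concave 3 it was 10.5% against 9.33% in convex 3. It is counted over genes that include the mitochondrially encoded list, so it must move with that list. The part of this share in the other lists was not tested.

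**Figure D5:**
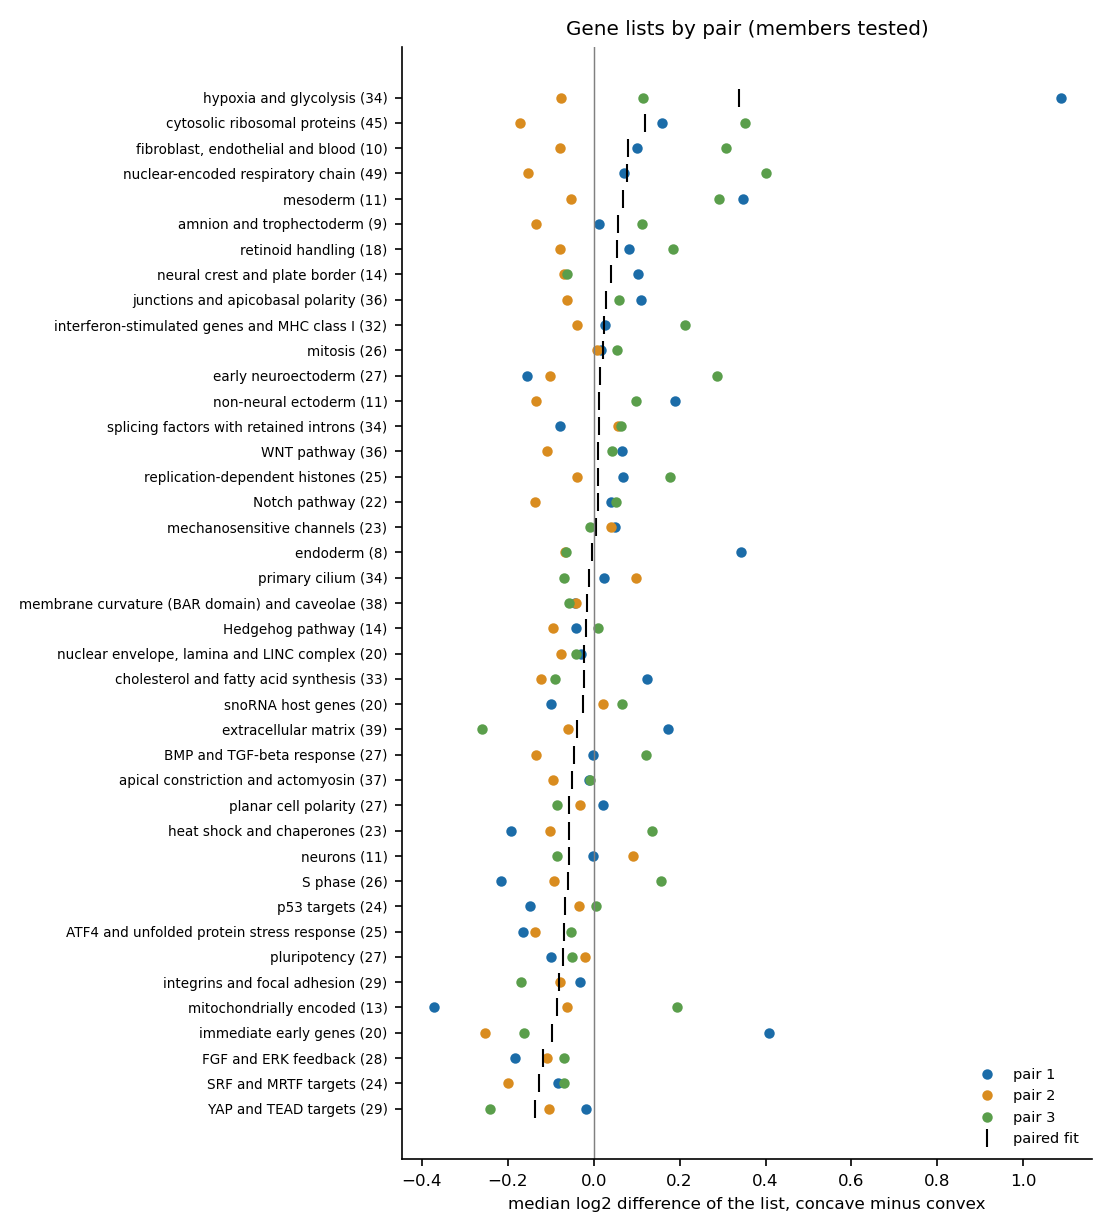
Median log2 difference, concave minus convex, of each of the 41 gene lists (vertical axis, with the number of members tested): coloured points are pairs 1, 2 and 3 and the black mark is the paired fit. Hypoxia and glycolysis lies at 1.09 in pair 1 against -0.08 and 0.12 in pairs 2 and 3. The 3 points of FGF and ERK feedback and of SRF and MRTF targets are all below 0. This also holds for YAP and TEAD targets, integrins and focal adhesion, ATF4 stress response and pluripotency. It holds too for apical constriction, membrane curvature and nuclear envelope genes.

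The stress genes that ATF4 controls were lower in 16 of 25 (median -0.07; -0.16, -0.14 and -0.05 by pair), and 7 of 22 were lower in all pairs with 0 higher, where 11.2% and 8.12% of all genes were. CHAC1, which degrades glutathione, was lower in each pair (fit -0.28 ± 0.12). SLC7A11, the cystine transporter, stood at 44.4, 59 and 77.6 CPM in concave and at 60.4, 55.05 and 138.1 in convex libraries, lower in pairs 1 and 3 (fit -0.39 ± 0.15). Early neuroectoderm genes had 16 higher and 11 lower of 27 (median 0.02), pluripotency genes 6 and 21 of 27 (-0.07), neither with a member called. DLK1, a Notch ligand relative, stood at 892.1, 585.2 and 126.3 CPM in concave and at 661.5, 684.5 and 51.5 in convex libraries (fit 0.49 ± 0.26), above its partner in pairs 1 and 3. TDGF1 was lower in each pair, by -1.06, -0.15 and -0.20 (fit -0.40 ± 0.16 with all libraries and -0.19 ± 0.18 without concave 1). HES6, a neurogenic relative of the Notch targets, was lower by -0.18, -0.26 and -0.37 (fit -0.27 ± 0.11).

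By p alone, the 3 higher genes of at least 5 CPM with the smallest values were EIF3C, TMEM150C and OTOF. EIF3C, a subunit of translation initiation factor 3, stood at 53, 25.1 and 70.05 CPM in concave and at 19.6, 19.2 and 33.9 in convex libraries (fit 0.96 ± 0.17), higher in each pair by 1.43, 0.38 and 1.05. It has a near-identical copy, EIF3CL, between which reads can be split, so its value is uncertain. TMEM150C differed by 0.84, 0.25 and 0.57 (fit 0.56 ± 0.16), and OTOF, a calcium sensor for vesicle release, by 0.62, 0.17 and 0.56 (fit 0.45 ± 0.13). These fits fell without concave 1, to 0.71 ± 0.19 for EIF3C, 0.40 ± 0.24 for TMEM150C and 0.35 ± 0.21 for OTOF. TMEM150C and OTOF then had an unadjusted p above 0.05. ELAVL3, an RNA-binding protein of neurons, was the only neuronal marker at an unadjusted p under 0.05, at 10.9, 3.44 and 3.92 CPM in concave against 4.86, 3.09 and 2.94 in convex libraries (fit 0.59 ± 0.21), and without concave 1 it was at 0.27 ± 0.27. The neuronal list itself had 5 members higher and 6 lower in the fit (median -0.06). TUBB3, another member, was lower in each pair (fit -0.24 ± 0.13). The summed neuronal markers were 154.8 to 237.4 CPM in the concave and 181 to 224.4 in the convex libraries.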

How the data were processed

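Polyadenylated RNA was sequenced with a strand-specific Illumina TruSeq kit, per the labels' protocols. The authors deposited unnormalized counts for each gene; the submitters' processing notes name HISAT2, featureCounts and GRCh38. Their versions, the annotation and the strand option are not given in the sources used. Of 62710 gene identifiers, 58274 were found in GENCODE v29, which gave positions.

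The 6 concave and convex libraries were fitted in R 4.3.3 with edgeR 4.0.16 (filterByExpr, TMM, quasi-likelihood with robust dispersion, replicate number as a block, two-sided, Benjamini-Hochberg over all genes tested, called at adjusted p under 0.05). Same-numbered libraries deviated together from their group means (r = 0.599, 0.287 and 0.609 for numbers 1, 2 and 3), all above the minimum of 0.1, but concave 2 with convex 1 (0.204) and concave 1 with convex 2 (0.119) passed it too. Scripts were tested on simulated data. Alternatives were other scalings and filters, limma 3.58.1 voom, DESeq2 1.42.0, no replicate block, all 9 libraries, a correction for transcript length (lowess, span 0.3) and each library left out.

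Genes were named by rule: those alike in all 3 pairs, the 3 smallest p per direction of at least 5 CPM, up to 4 members of a list by p with at least 1 CPM, those of opposite sign in pair 1, and SOX2, OTX2, PAX6, POU5F1, CDH1, CDH2, SHROOM3, CCN1, CCN2, DLK1 and TDGF1. Not every gene the rule gives is printed, and MAGEA2, further members of the FGF and ERK and hypoxia lists and the genes just outside the limits were added after their values were seen. The comparison, its members and the gene lists were chosen with earlier results of these data known. Promoter sequences are from RefSeq (GRCh38.p14).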

Additional observations from a re-analysis of the deposited data

How the results depend on the processing

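No gene was called under any other scaling, with at least 1 CPM in 3 libraries, with limma voom, at adjusted p under 0.1, with all 9 libraries, with the length correction, or without the hypoxia list (chosen after seeing the data). Without the replicate block edgeR called 0 genes, with 86 at an unadjusted p under 0.05 (44 higher, 42 lower). The errors of genes whose level followed the number were then far wider: VGF was at -0.61 ± 0.78 and SPRY4 at -0.64 ± 0.74. DESeq2 called 2, and edgeR with no filter beyond 1 count called 9 (6 higher, 3 lower), among them SPRY4 (adjusted p = 0.00123, against 0.00074 to 1 over its other alternatives), VGF and EIF3C; the cause was not tested. Leaving out 1 library gave 0 to 105 called genes, above 0 only without concave 2 or convex 2. Without concave 2 the calls included SPRY4 (-0.79), SLC7A11 (-0.65), COL12A1 (-1.41), EIF3C (1.23), MAGEA2 (1.75), ALDOA (0.59), P4HA2 (1.02), PGK1 (0.79), IFITM1 (0.63), CLDN3 (0.79), CLDN7 (0.61) and DLK1 (0.85). In pair 2, which that fit lacks, SLC7A11 (0.10), PGK1 (-0.03), IFITM1 (-0.08), CLDN3 (-0.08), CLDN7 (-0.15) and DLK1 (-0.23) had the opposite sign. ALDOA and P4HA2 were at 0.05 and 0.02 there, and SPRY4, COL12A1, EIF3C and MAGEA2 kept their sign. The call with the smallest adjusted p, NDUFA4L2 (2.84), was at -1.36 in pair 2. The set alike in all 3 pairs went from 5 genes to 48 at a minimum of 1 CPM, 1 at 20 CPM, 31 at a smallest difference of 0.2, 0 at 0.5, 3 at a limit of 1.5 times, 8 at 2.5 times (chosen after seeing the data) and 10 with no limit. From 2 pairs it was 21 without concave 1, 270 without concave 2 and 53 without concave 3. It was 5 to 7 under the other scalings and prior count and 4 with the length correction.

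Some genes near 0, or resting on 1 pair, changed sign when 1 library was left out; their log2 differences then ran from -0.40 to 0.065 (SPRED3), -0.51 to 0.29 (EGR1), -0.73 to 0.88 (ADM), -0.50 to 0.18 (AMOTL2), -0.078 to 1.99 (NDRG1), -0.093 to 0.55 (VEGFA), -0.035 to 0.064 (SOX2), -0.060 to 0.13 (OTX2), -0.17 to 0.035 (PAX6), -0.064 to 0.044 (POU5F1), -0.0012 to 0.21 (CDH1), -0.018 to 0.13 (CDH2), -0.020 to 0.031 (FGFR2), -0.12 to 0.069 (FGFR3), -0.024 to 0.16 (FGFR4) and -0.15 to 0.15 (SPRY1). SPRED3, ADM, NDRG1, VEGFA, PAX6, CDH1, CDH2, FGFR2 and SPRY1 turned without a library of number 1. With no replicate block POU5F1 was 0.011 and FGFR3 0.0046, with the length correction and the replicate block FGFR3 was 0.016, and with library size only FGFR2 was -0.0025. The other settings run left each named gene on its side of 0. The median standard error was 0.117 for genes of at least 5 CPM and 0.164 over all genes tested, and differences several times larger than these did not pass the adjusted threshold with 3 pairs.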
